A study of Mus musculus with 96 samples.

Results

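The SR protein and hnRNP genes are the 2 large families of RNA-binding splicing regulators. They were taken by symbol, as every gene named Srsf with a number or Hnrnp with letters, which gave 31 of the 40202 annotated genes, 11 of them SR protein genes and 20 hnRNP genes. Of the 31, 29 reached a mean of at least 5 counts per 1000000 (CPM), and Srsf4 and Srsf12 did not. The libraries are 96 single cells of C10, a mouse lung line labelled as alveolar type II epithelial, of which 48 were untreated (control) and 48 were treated with RO-3306, at a labelled dose of 10 nM for 36 h. That dose is below those in common use and could not be checked here. RO-3306 is sold as an inhibitor of the mitotic kinase CDK1, an effect that was not measured in these files. All cells shared the same line and the same medium, with serum and glutamine, and the labels name no separate culture. Each treatment was therefore 1 sample, and no test was possible. The 95% intervals given below reflect counting error alone. They take each read as independent, which is too narrow for counts that include PCR copies.

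SR proteins carry RNA recognition motifs and a tail of arginine-serine repeats. They bind enhancer sequences in exons, recruit the spliceosome and favour inclusion of the exon. The hnRNPs coat nascent pre-mRNA, and many of them bind silencer sequences and oppose SR proteins, while others act in mRNA export, stability or chromatin structure. SR proteins are switched by kinases of the Srpk and Clk families, hnRNPs are methylated on arginine, and members of both families limit their own amount through alternative exons that send the transcript to nonsense-mediated decay.

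The 250 bases before the start sites of 29 of the 31 genes were found in the RefSeq promoter table (GRCm38.p6), and Srsf3, Hnrnpr, Hnrnpa0 and Srsf5 are shown since the first 3 were at least 2-fold lower in RO-3306 cells, with the same sign in all 4 subsets of cells described below, and Srsf5 was the SR protein gene closest to its control level. Each line gives the 120 bases before the start, 5′ to 3′ on the strand of the gene, with matches to 6 short motifs in capitals. The windows are chr17:29032540-29032659 (plus strand) for Srsf3, chr4:136310822-136310941 (plus) for Hnrnpr, chr13:58128557-58128676 (minus) for Hnrnpa0 and chr12:80945379-80945498 (plus) for Srsf5.
Srsf3: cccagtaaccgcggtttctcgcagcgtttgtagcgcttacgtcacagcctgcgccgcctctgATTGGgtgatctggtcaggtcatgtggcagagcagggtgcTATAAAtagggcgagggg
Hnrnpr: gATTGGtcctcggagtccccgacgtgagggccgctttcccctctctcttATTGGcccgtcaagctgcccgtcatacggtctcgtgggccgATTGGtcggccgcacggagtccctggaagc
Hnrnpa0: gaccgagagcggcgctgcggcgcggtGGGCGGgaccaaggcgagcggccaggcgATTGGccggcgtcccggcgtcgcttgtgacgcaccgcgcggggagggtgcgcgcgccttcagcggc
Srsf5: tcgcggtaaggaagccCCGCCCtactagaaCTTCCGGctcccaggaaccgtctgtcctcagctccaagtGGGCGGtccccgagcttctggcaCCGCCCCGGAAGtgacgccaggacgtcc
In Srsf3 the capitals mark a CCAAT box on the reverse strand (ATTGG) and a TATA box. Hnrnpr holds 3 such reversed CCAAT boxes, and Hnrnpa0 holds 1 with a GC box before it. The Srsf5 window has 3 GC boxes and 2 ETS sites, with a GC box and an ETS site overlapping by 1 base at its end, and no CCAAT box.

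Over the 250 bases, with both strands searched, the CCAAT box (CCAAT or ATTGG) was found in 15 of 29 members, or 51.7%, against 37.3% of 7559 expressed genes and 34.5% of all 27025 promoters in the table. The GC box (GGGCGG or CCGCCC) was found in 23, or 79.3%, against 60.9% and 32.9%. The ETS site (CCGGAAG or CTTCCGG) was in 6 (20.7%, against 15.6% and 7.05%), and a GC box can overlap it as in Srsf5. A TATA box (TATAAA or TTTATA) stood before Srsf2, Srsf3 and Hnrnpm (10.3%, against 6.16% and 12.97%). The E-box CACGTG stood before Hnrnpa3 and Hnrnpd (6.90%, against 8.85% and 6.05%), and TGACGTCA before none (2.96% of expressed genes). The median GC content of the members' windows was 65.2%, with 23 CpG, against 60.0% and 17 for expressed genes. The genes shown are not the whole group, as 8 members were at least 2-fold lower with the same sign in all 4 subsets. Of the others, Srsf10, Hnrnpa2b1 and Hnrnph1 had a CCAAT box, and Hnrnpu and Hnrnpd had none. Hnrnpa1 and Hnrnph2, which were less than 2-fold lower, had a CCAAT box too. A link between motifs and ratios was not tested. Matches are letters in a window and were not tied to any binding measurement.

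Libraries with under 50000 counts or 1000 genes were set aside, which left 29 control and 37 RO-3306 cells. Their totals ran from 59979 to 6457215 counts in control and from 295005 to 5321880 in RO-3306, with sums of 66034079 and 92828839. In both groups the titles hold a letter (A, B, C or D) that is not explained. The 4 lettered sets, of 10, 8, 6 and 5 control and 10, 10, 11 and 6 RO-3306 cells, serve to see whether a difference keeps its sign and are not replicates. The label of the line was checked on markers. Of the 7 alveolar type II markers, Sftpa1, Sftpc, Sftpd and Slc34a2 were at 0 in all kept cells. The list summed to 22.9 CPM in control cells against 24 CPM after RO-3306, nearly all from Abca3 and Lpcat1. The surfactant genes thus did not bear out the labelled cell type. Epithelial, macrophage and endothelial lists summed to 1.78, 32.1 and 0.62 CPM in control and to 0.98, 15.9 and 0.15 in RO-3306. Most of the macrophage sum was Lyz2 (29.5 and 15.8 CPM). The 6 mesenchymal genes summed to 5579 and 2523 CPM. All 6 had lower values in RO-3306, where 59.0% of all genes of at least 5 CPM did, but only 3 were lower in every set. Fn1 was higher in set A, Acta2 in sets B and D and Cdh2 in set B. Whether the difference in mesenchymal genes has a part in the splicing factor values was not tested.

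Transcripts of both families were less abundant in RO-3306 cells. Together the 31 genes made up 9894 CPM of the control counts (9870 to 9918) and 4773 CPM of the RO-3306 counts (4759 to 4787), a ratio of 0.482. SR protein genes went from 3622 to 1735 CPM and hnRNP genes from 6272 to 3038 CPM, and the pooled ratios of the families were 0.479 and 0.484. By set the families differed, with log2 ratios of the sums in sets A, B, C and D of -1.15, -1.38, -0.72 and -0.99 for the SR protein genes and of -0.78, -1.19, -1.16 and -1.24 for the hnRNP genes. Without members whose counts were fractional in over 50% of cells, the pooled values were -0.88 and -1.28. CPM is a share of the counts, so fewer transcripts of these genes and more transcripts of others cannot be told apart. In single cells the summed value of the 31 genes had a lowest, median and highest value of 5291, 9144 and 16521 CPM in control and of 1239, 4477 and 8320 CPM in RO-3306. Every one of the 37 RO-3306 cells lay below the control median, and 30 of them lay below the lowest control cell.

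**Figure D1:**
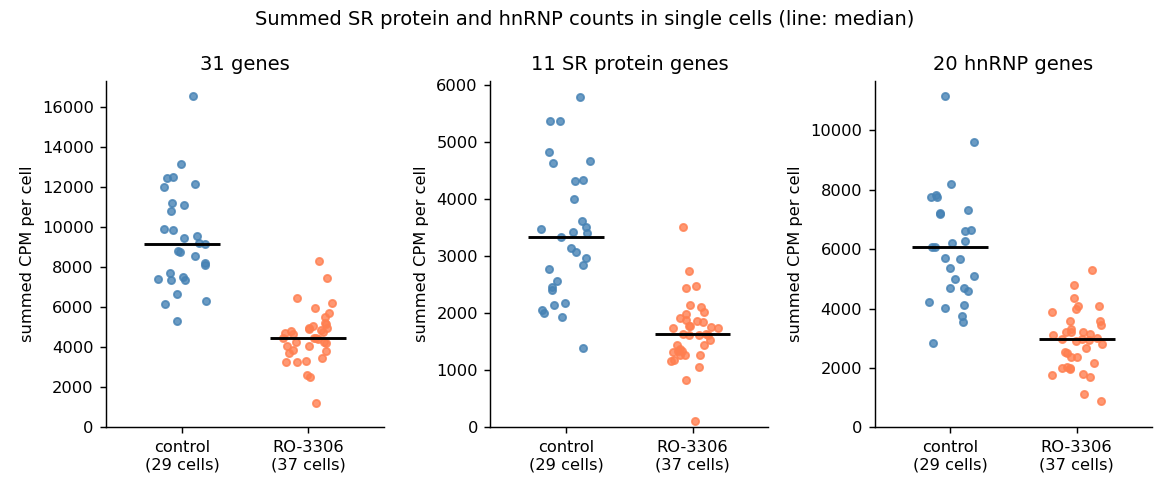
Summed CPM per cell of the 31 genes (left), the 11 SR protein genes (middle) and the 20 hnRNP genes (right), one point per kept cell, with a line at the median of 29 control and 37 RO-3306 cells. For the 31 genes the medians are 9144 and 4477 CPM, and the groups overlap in 7 RO-3306 cells.

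By family, the SR protein sum per cell ran from 1402 through a median of 3347 to 5793 CPM in control and from 108 through 1634 to 3515 CPM in RO-3306. The hnRNP sum ran from 2835 through 6058 to 11140 CPM and from 897 through 2964 to 5305 CPM. For the SR sum 36 of 37 RO-3306 cells were below the control median and for the hnRNP sum 37 were. Within the lettered sets, all 10 RO-3306 cells of set A, all 10 of set B, 10 of 11 in set C and 4 of 6 in set D had a lower sum of the 31 genes than any control cell of their own set. The ratio of the sums was -0.91, -1.26, -1.001 and -1.16 (log2) in sets A, B, C and D.

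RO-3306 cells were sequenced more deeply, so each cell was also thinned to 639000 reads, which left 25 control and 34 RO-3306 cells. The median sum of the 31 genes was then 9412 CPM (5191 to 16455) against 4613 CPM (2624 to 8379), and 27 of the 34 RO-3306 cells were below the lowest control cell. At this depth the median cell had a count for 23 of the 31 genes in control and for 24 in RO-3306, with ranges of 16 to 30 and 5 to 29. Over all genes, the medians were 4578 and 5979.5 genes with a count. The number of detected members was thus nearly the same in both groups, whereas the number of detected genes was higher in RO-3306 cells.

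The ratio of each gene was taken as log2 of RO-3306 CPM plus 1 over control CPM plus 1. All 29 members of at least 5 CPM had a ratio below 0, where 59.0% of the 9374 genes at that level did. The median was -1.20 over the members, -1.28 over 9 SR protein genes and -1.01 over 20 hnRNP genes, against -0.22 over all genes, and 27 members were below that all-gene median. At least 2-fold lower were 17 members, where 24.2% of all genes were. In each of the 4 lettered sets 14 members were lower, where 10.3% of all genes were. Both conditions together were met by 8 members, Hnrnpu, Srsf10, Hnrnpr, Hnrnpd, Hnrnpa2b1, Hnrnph1, Hnrnpa0 and Srsf3, and by 6.43% of all genes. No member was 2-fold higher, where 7.23% of all genes were higher by the same rule. Scaling with TMM or DESeq2 factors raises ratios by up to 0.21 or 0.24. Then 27 of the 29 members were lower, beside 50.9% (TMM) and 49.7% (DESeq2) of all genes. Srsf5 and Hnrnph3 were slightly higher (0.17 and 0.16 with TMM). At least 2-fold lower were 14 members, without Hnrnpa2b1, Srsf6 and Hnrnpdl, and 7 members met both conditions, beside 4.91% of all genes. Among the 26 members of at least 50 CPM the 8 genes stood beside 7.83% of all 3702 genes of that level. At that level 55.1% of all genes were lower by any amount, 15.9% were lower in every set, 14.4% were lower by 2-fold and 6.02% were higher by the rule.

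**Figure D2:**
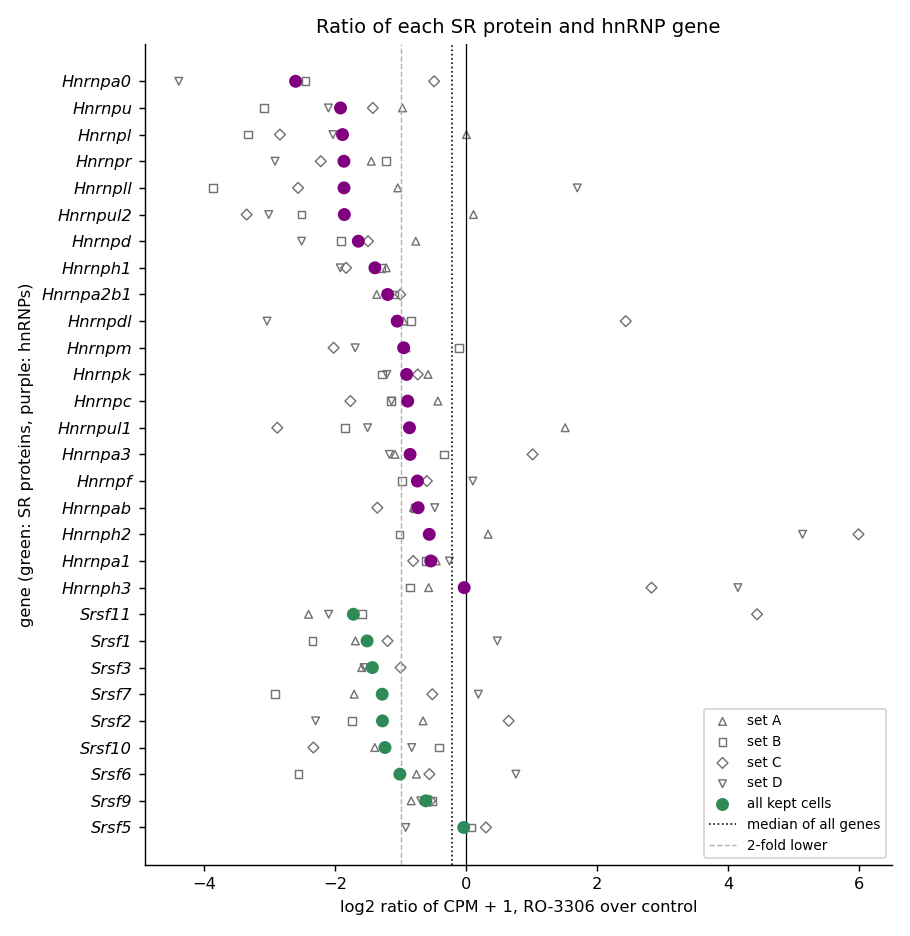
Log2 ratio of CPM + 1, RO-3306 over control, for the 29 members of at least 5 CPM. Filled points are all kept cells summed (green SR proteins, purple hnRNPs), open symbols the lettered sets A to D, and lines mark 0, the all-gene median of -0.22 and 2-fold lower. All filled points lie below 0, while single sets of 15 genes reach 0 or above.

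Levels were also ranked per kb of mRNA. This ranking between genes is rough, as counting took in introns and split multi-mapped reads. By it the most abundant member in control was Hnrnpa2b1 with 532 CPM per kb, followed by Hnrnpk with 514, Srsf9 with 408 and Hnrnpa1 with 350. In RO-3306 the order at the top was Hnrnpk with 274 CPM per kb, Srsf9 with 266, Hnrnpa1 with 240 and Hnrnpa2b1 with 231. Hnrnpa2b1 thus went from the first to the fourth place. Srsf7, Srsf2 and Srsf3 were close together in control, at 310, 292 and 289 CPM per kb, and remained close in RO-3306, at 127, 120 and 107. Spacing between neighbours of this kind is small beside the spread of single cells.

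**Figure D3:**
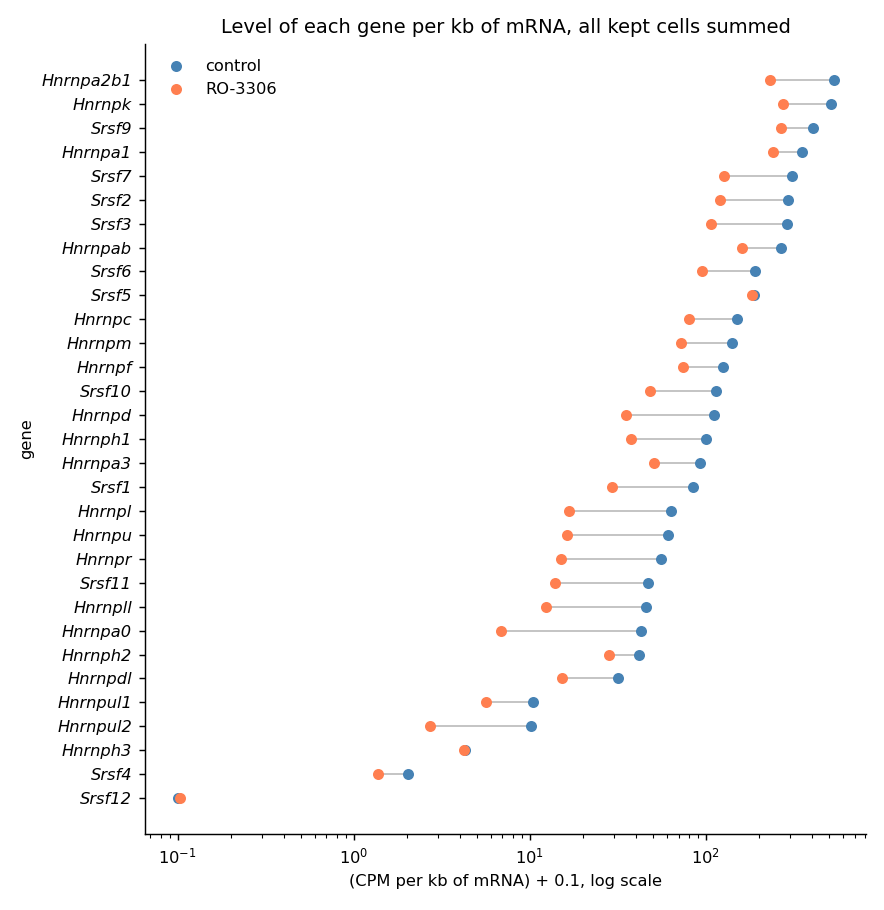
Level of each of the 31 genes in CPM per kb of mRNA plus 0.1, on a log axis, for all control (blue) and all RO-3306 cells (orange). Levels span from Srsf12, at or near 0, to Hnrnpa2b1, at 532 CPM per kb in control, and Srsf5 is the abundant member whose 2 points nearly coincide (188 and 183).

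Among the canonical SR proteins, Srsf3 encodes the shortest member, which links splicing to mRNA export and counts among the highest levels of the family. Per cell it had 72.8, 633.5 and 1728 CPM (lowest, median and highest) in control and 0, 232.6 and 752 CPM in RO-3306. It had a count in all 29 control cells and in 36 of 37 RO-3306 cells, 35 of which were below the control median. Summed, it went from 757 CPM (751 to 764) to 280 CPM (276 to 283), and the log2 ratio of -1.43 was steady over the sets, at -1.60, -1.46, -1.003 and -1.56. Reads were split with similar sequences elsewhere in 83.1% of the cells with a count, so part of these counts may belong to other copies.

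Srsf1, the founding SR protein and a classical activator of weak splice sites, had a median of 174 CPM per control cell (0 to 658) and 48.4 CPM per RO-3306 cell (0 to 1230). The RO-3306 cell with the highest value thus exceeded every control cell, although 32 of 37 cells were below the control median. Its sum went from 248 to 86.3 CPM, a log2 ratio of -1.51, with the opposite sign in set D (0.47). Srsf7, which binds RNA through a zinc knuckle next to its recognition motif, had 431 CPM in the median control cell (0 to 1687) and 122 CPM in the median RO-3306 cell (0 to 833). The sum went from 515 to 211 CPM, or -1.28 on the log2 scale, with set D at 0.18, and without set B the ratio was -0.67. Srsf2, an SR protein found in nuclear speckles, had 294 CPM (0 to 1784) and 187 CPM (0 to 544). Its sum went from 471 to 193 CPM (-1.28), with set C at 0.65, and 38.9% of its span is overlapped by another gene, Mfsd11.

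Srsf6, a canonical member with a pair of recognition motifs, had 282 CPM in the median control cell (0 to 1190) and 145 CPM in the median RO-3306 cell (0 to 592). Its log2 ratio was -1.01 (387 to 191 CPM), with set B at -2.56 and set D at 0.76, and without set B it was -0.45. Srsf9, which is built like Srsf1, was lower by less but in each set. Its median cell had 467 CPM in control (0 to 1244) and 283 CPM in RO-3306 (3.88 to 764), its sum went from 474 to 309 CPM, and the sets gave -0.84, -0.52, -0.55 and -0.69.

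Srsf5 stood apart from the other SR protein genes. It had 328 CPM in the median control cell (0 to 1086) and 243 CPM in the median RO-3306 cell (0 to 833) and was seen in 25 of 29 and 35 of 37 cells. Summed, it was at 281 CPM in control (277 to 285) against 274 CPM with RO-3306 (270.3 to 277), and its log2 ratio of -0.04 lies above the all-gene median. Sets A, B and C gave -0.04, 0.07 and 0.30, and set D gave -0.92, so the sign is not settled. Because the other SR protein genes were lower, Srsf5 supplied 7.76% of all SR protein counts in control (7.66% to 7.87%) and 15.8% in RO-3306 (15.6% to 15.95%). The share was higher in sets A, B and C (from 6.74% to 14.5%, from 6.35% to 17.4% and from 6.96% to 14.1%) and barely moved in set D (16.7% and 17.5%). Srsf9 went from 13.1% to 17.8% of the family, while Srsf3 went from 20.9% to 16.1%.

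Srsf10 and Srsf11 are family members outside the canonical set. Srsf10, a regulator that turns into a splicing repressor when it is dephosphorylated, had 217 CPM in the median control cell (0 to 1949) and 81.4 CPM in the median RO-3306 cell (0 to 802). Its sum went from 350 to 148 CPM, and all sets were lower (-1.40, -0.41, -2.33 and -0.83). Without set C the ratio of -1.24 became -0.97, and relative to genes of like mRNA length it was -0.78, both short of 2-fold. Srsf11 had the lowest ratio of the SR protein genes, -1.72, from 135 to 40.04 CPM, but its median cell held only 1.48 CPM in control (0 to 1693) and 1.24 CPM in RO-3306 (0 to 277). A single control cell gave 26.5% of its control counts, and set C had the opposite sign (4.44) because its control cells held almost none (0.12 CPM). Srsf4 (4.36 and 2.86 CPM) had counts in 2 control and 10 RO-3306 cells, and Srsf12 had a count in 1 RO-3306 cell and in 0 of 29 control cells, which allows up to 0.0454 CPM.

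**Figure D4:**
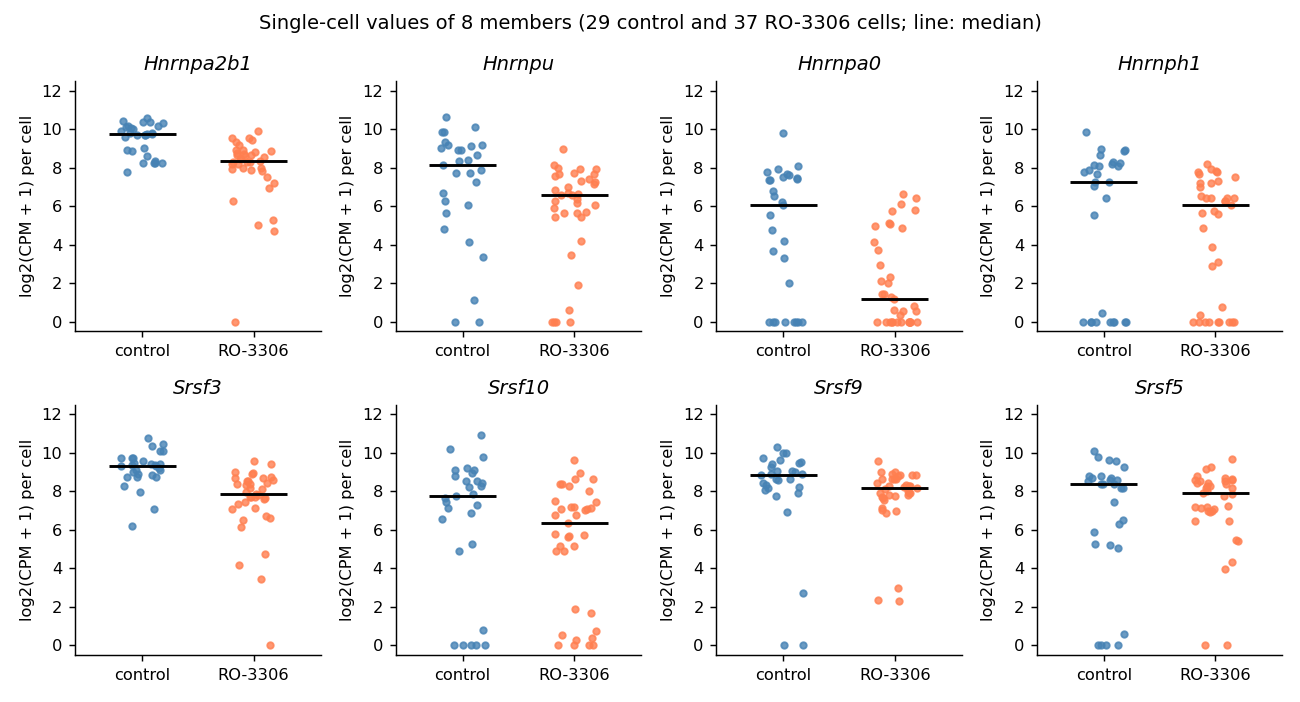
Values of 8 members in each kept cell as log2(CPM + 1), control in blue and RO-3306 in orange, with a line at the median. Hnrnpa2b1 and Srsf3 are found in nearly every cell and shift as a whole, Hnrnpa0 and Hnrnph1 have many cells at 0 in both groups, and Srsf9 and Srsf5 overlap most.

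The hnRNP A/B proteins are abundant nuclear factors that bind UAG-like elements and often silence exons. Hnrnpa2b1 had the most regular difference of the group. Per cell it had 215, 854 and 1527 CPM in control and 0, 323 and 942 CPM in RO-3306, and 36 of 37 RO-3306 cells were below the control median. Its summed level was 877 CPM (870 to 884) against 381 CPM (377 to 385), or -1.20 on the log2 scale, and the sets gave -1.37, -1.10, -1.01 and -1.22. Hnrnpa0, a relative that binds AU-rich elements, had the lowest ratio of all 31 genes, -2.60, from 115 CPM (113 to 118) to 18.1 CPM (17.2 to 18.98). Its median cell had 66.7 CPM in control (0 to 898) and 1.26 CPM in RO-3306 (0 to 97.0). The sets differed in size (-2.58, -2.45, -0.49 and -4.39), and after thinning the gene was seen in 20 of 25 control and 18 of 34 treated cells.

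Hnrnpa1, the best studied repressor of the group, was much closer to its control level. It had 156, 527 and 1396 CPM per control cell and 0, 352 and 801 CPM per RO-3306 cell, and its sum went from 607 to 417 CPM. The log2 ratio of -0.54 was below 0 in every set (-0.46, -0.62, -0.81 and -0.26), but 90.6% of its cells held fractional counts, and retroposed copies cannot be told apart from it. Hnrnpab had 470 CPM in the median control cell (33.3 to 1885) and 317 CPM in the median RO-3306 cell (0 to 620), a log2 ratio of -0.73 that was negative in each set, with 46.7% of its span overlapped by Phykpl. As Hnrnpa1 and Srsf1 are known to compete over the same splice sites, their balance was also computed. Control cells had 0.409 Srsf1 counts per Hnrnpa1 count (0.402 to 0.417) and RO-3306 cells 0.207 (0.202 to 0.212). The ratio was lower in sets A (from 0.526 to 0.222), B (from 0.407 to 0.121) and C (from 0.309 to 0.234) and higher in set D (from 0.149 to 0.248).

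Hnrnpk, a protein with KH domains that binds C-rich sequence, had the highest CPM of the 31 genes. It had 0, 1215 and 3570 CPM per control cell and 76.3, 624.5 and 2017 CPM per RO-3306 cell, and 34 of 37 RO-3306 cells were below the control median. The sum went from 1371 CPM (1362 to 1380) to 729 CPM (723.5 to 734.5), or -0.91 on the log2 scale, and was lower in all sets (-0.58, -1.28, -0.74 and -1.21). Its counts were fractional in 86.2% of cells.

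The U-type hnRNPs bind RNA and chromatin. Hnrnpu, also known as scaffold attachment factor A, had 283 CPM in the median control cell (0 to 1572) and 94.0 CPM in the median RO-3306 cell (0 to 493). In sets A to D its control values were 264, 663, 403 and 538 CPM and its RO-3306 values 134, 77.4, 149 and 124 CPM, so no RO-3306 set reached a control set. The summed level went from 468 to 123 CPM and the ratio was -1.92, or -1.31 without set B. Hnrnpul2 (51.2 and 13.4 CPM) had a ratio of -1.86 and Hnrnpul1 (34.7 and 18.6 CPM) one of -0.87, and both were higher in set A (0.11 and 1.51). After thinning, Hnrnpul2 was at -1.01. Hnrnpu has the longest mRNA of the members (7640 nt), and relative to genes of like length its ratio was -0.97.

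Hnrnpl, a binder of CA repeats, and its relative Hnrnpll were both low in RO-3306. Hnrnpl had 135 CPM in the median control cell (0 to 361) and 33.8 CPM in the median RO-3306 cell (0 to 294), with 36 of 37 cells below the control median. Its ratio of -1.89 was absent from set A (0.00) and came from sets B, C and D (-3.33, -2.84 and -2.03), and without set A it was -2.57. Hnrnpll had -1.87 with the opposite sign in set D (1.69), and without set B it was -1.17. Hnrnpr, a relative of Syncrip that binds mRNA in nucleus and cytoplasm, had 59.0 CPM in the median control cell (0 to 586) and 10.1 CPM in the median RO-3306 cell (0 to 420). Its sum went from 149 to 40.02 CPM, and all sets were at least 2-fold lower (-1.45, -1.22, -2.22 and -2.92). Hnrnpd, which binds AU-rich elements and marks mRNAs for decay, had 122 CPM in the median control cell (0 to 1860) and 34.9 CPM in the median RO-3306 cell (0 to 835). The sum went from 205 to 64.7 CPM (-1.65, with sets at -0.77, -1.91, -1.50 and -2.51), and after thinning the ratio was -0.97.

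The F and H proteins bind runs of G, and their values were mixed. Hnrnph1 had 153 CPM in the median control cell (0 to 924) and 65.7 CPM in the median RO-3306 cell (0 to 292), and its sum went from 222 to 83.7 CPM, with all sets lower by at least 2-fold (-1.22, -1.30, -1.83 and -1.92). Hnrnpf had 274 CPM (0 to 1291) and 132 CPM (0 to 343) in the median cells, a ratio of -0.75 with set D at 0.10, and fractional counts in 98.3% of its cells. Hnrnph2 had a pooled ratio of -0.57 (99.1 to 66.6 CPM) that went against its distribution over cells. Only 9 of the 29 control cells had a count for it, but 26 of the 37 RO-3306 cells did, and at equal depth 9 of 25 and 24 of 34. Control cells of sets C and D held none, where RO-3306 cells held 62.3 and 34.05 CPM, and 1 control cell supplied 36.4% of the control counts. Without set B the ratio was 0.57, so its direction rests on that set. Hnrnph3 (9.12 and 8.90 CPM) was counted in 2 control and 15 RO-3306 cells, and 66.8% of its span is overlapped by Rufy2 and Pbld2.

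The remaining hnRNP genes, Hnrnpa3, Hnrnpc, Hnrnpm and Hnrnpdl, had ratios between -1.05 and -0.86. Hnrnpc, which binds U tracts and guards against the use of cryptic exons, was lower in each set (-0.43, -1.15, -1.77 and -1.14) and went from 377 to 202 CPM. Hnrnpm was lower in each set too (349 to 179 CPM). Hnrnpa3 (153 to 84.1 CPM) and Hnrnpdl (87.3 to 41.5 CPM) had set C at 1.01 and 2.43. Counts were fractional in 96.9% of cells for Hnrnpa3 and in 66.2% for Hnrnpc. Within the hnRNP family, Hnrnpk held 21.9% and 23.997% of the counts, Hnrnpa1 9.68% and 13.7%, and Hnrnpu 7.46% and 4.05%.

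Values within a group were also compared from cell to cell. At equal depth, Spearman's rho between the SR sum and the hnRNP sum was 0.30 over 25 control cells and 0.12 over 34 RO-3306 cells. Over 325 pairs of the 26 members of at least 50 CPM, the median rho was 0.08 in control and 0.10 in RO-3306. Cells share the library preparation, and low counts weaken any such value. The median share of mitochondrial counts was 3.40% in control and 4.42% in RO-3306 cells, and its rho with the hnRNP sum was -0.52 and -0.20 and with the SR sum -0.13 and 0.02. The highest share was 6.03% in control and 55.97% in RO-3306, where 1 kept cell was over 20%. Without that cell, 29 members were still lower and 8 were 2-fold lower with one sign in the sets, beside 58.8% and 6.44% of all genes. The part of the mitochondrial share in the difference between the groups was not tested.

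Ratios over all genes followed mRNA length, in 10 equal classes of 8838 genes, from a median of 0.26 in the shortest class to -0.95 in the longest. The members' median length was 2364 nt, against 2623 nt for all genes, and 28 of 29 members, all but Hnrnph3, were below the median of their own class. The 2065 genes between the members' quartiles of length, 1835 and 2752 nt, had a median of -0.19.

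Lists of related genes were measured in the same way. Of all genes of at least 5 CPM, 59.0% were lower and 6.43% were 2-fold lower with one sign in the sets. The 9 hnRNPs under other symbols were all lower, with a median of -1.09 and a summed level of 917 CPM against 381 CPM after RO-3306. Of them 4 passed the 2-fold rule with one sign in the sets, among them Syncrip (158 to 33.04 CPM, -2.22). The highest ratio of the abundant genes was that of Ptbp3 (-0.49), with sets B and C at 0.86 and 4.69. The SR-related factors, coactivators with arginine-serine repeats and their importer, were lower in 9 of 10, with a median of -1.57 and 3 past the rule. Here Srrm2, a scaffold of nuclear speckles, had -1.75 and Tra2b, a direct activator of exon inclusion, was at 181 and 183 CPM (0.02). Srrm2 was higher in set A (0.81), and Tra2b ran from -0.61 in set D to 1.65 in set C.

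Enzymes that modify the families were measured too. SR protein kinases, of which 7 of 9 reached 5 CPM, were lower in 4 and higher in 3, with a median of -0.25, and they summed to 356 CPM against 361 CPM after RO-3306. Clk4, which phosphorylates SR proteins in the nucleus, was the kinase past the rule, in the higher direction, where 7.23% of all genes were. It went from 48.3 to 101 CPM (1.05) and was seen in 9 of 29 and 31 of 37 cells, although sets A and B were close to 0 (0.08 and 0.15) and set D at 6.71. Srpk2, a cytoplasmic SR protein kinase, had the lowest ratio of the abundant kinases (-0.52), with sets B and D at 0.45 and 1.71. The 6 arginine methyltransferases tested had a median of -1.002. Of them 5 were lower (59.0% of all genes) and 1 was lower past the rule (6.43% of all genes). Those of at least 50 CPM ran from Prmt7 (-1.48) to Prmt2 (0.88). However, Prmt7 was higher in sets A and C (0.94 and 4.83) and Prmt2 lower in sets C and D (-0.29 and -0.44).

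Lists of the spliceosome core differed. Sm proteins, the ring that holds each spliceosomal RNA, had a median of -0.10 over 6 genes, near the all-gene median of -0.22. None was past the rule, and those of at least 50 CPM ran from Snrpb (-0.45) to Snrpd2 (0.18). In the next 3 lists the named genes are likewise the lowest and highest of at least 50 CPM. Some genes below that level had lower ratios, such as Sf3b3 (-2.21) and Prpf6 (-2.23). Of all genes, 59.0% were lower by any amount and 6.43% met the rule in the lower direction. Proteins of the U1 and U2 particles and U2AF had a median of -0.72 over 16 genes, with 11 lower, 5 higher and 4 past the rule. Sf3b1 (-1.32) and Sf3b6 (0.48) are the named genes, and Sf3b6 was lower in sets A and C (-0.29 and -0.81). The tri-snRNP list had -0.77 over 10 genes, with 6 lower, 4 higher and 3 past the rule, and the named genes are Eftud2 (-1.26) and Snu13 (0.32). Nonsense-mediated decay factors had a median of -0.11 over 9 genes, with 7 lower, 2 higher and none past the rule. Upf3b (-0.04) and Upf3a (1.06) are named, with Upf3b higher in set A (0.28) and Upf3a lower in set B (-0.39). The sign of ratios within 0.24 of 0, as for Upf3b, depends on the scaling. The lists differ in mRNA length, with medians of 1108 nt for the Sm genes and 3465.5 nt for the SR-related factors, and the part of length in their order was not tested.

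**Figure D5:**
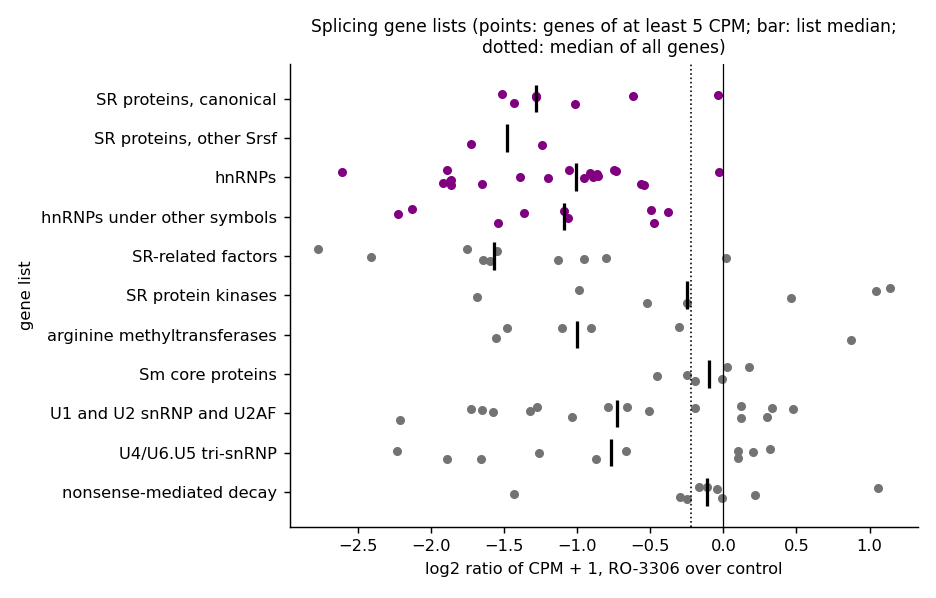
Log2 ratio of CPM + 1, RO-3306 over control, for genes of at least 5 CPM in the 2 families (upper rows, purple, with the hnRNPs under other symbols) and in 7 related lists (grey). Bars are list medians and the dotted line is the all-gene median of -0.22, from which the SR, hnRNP (under both kinds of symbol), SR-related and methyltransferase lists lie farthest to the left and the Sm proteins, kinases and decay factors lie close.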

How the data were processed

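The deposited values are expected counts, which the authors made with featureCounts 2.0.3 against the GRCm39 RefSeq annotation, per the file headers. Counting took in introns as well as exons, and a multi-mapped read added an equal fraction to each of its places. The headers give no strand option, so antisense and overlapping genes cannot be separated. FastQC and STAR are named in the submitters' processing notes, without versions. SMART-seq v4 libraries carry no molecular identifiers, so the counts include PCR copies.

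Counts of kept cells were added up by group and expressed per 1000000 of the group's counts (CPM). Ratios used a pseudocount of 1 CPM, which understates changes of low genes, and a minimum mean of 5 CPM. Sums have exact Poisson intervals, with fractional counts rounded to whole numbers and each read taken as independent despite PCR copies. Fractional means over 1e-06 from a whole number. The 10 members fractional in over 50% of their cells were Srsf2, Srsf3, Srsf10, Hnrnpa1, Hnrnpa3, Hnrnpc, Hnrnpf, Hnrnph2, Hnrnpk and Hnrnpr. mRNA lengths came by symbol from GENCODE vM21 transcripts, and 94.3% of genes at 5 CPM or more had one.

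Named were, in each family, the 4 highest and 4 lowest ratios among members of at least 50 CPM, all members past 2-fold with one sign in the 4 sets and the 3 most abundant per kb, and in each related list the highest and lowest gene of at least 50 CPM. Members given beyond that rule were chosen after their values were seen. The members and lists were chosen with earlier results of these data known. TMM and size factors came from edgeR 4.0.16 and DESeq2 1.42.0 in R 4.3.3. All else used Python 3.11.15, numpy 2.4.6, pandas 2.3.3, scipy 1.17.1 and matplotlib 3.10.9. Doublets were not called, as cells had been dispensed singly. Libraries below 50000 counts or 1000 genes were left out of the comparisons.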

Additional observations from a re-analysis of the deposited data

Results flagged for a closer look

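The libraries left out for few counts or genes still held transcripts of the 31 genes, a signal outside the main measurement. Summed over 11 RO-3306 libraries they made up 2682 CPM (2589 to 2779), and over 19 control libraries 881 CPM (783 to 985), which is the opposite order to the kept cells. The totals are uneven, as a single RO-3306 library held 773537 of the 1162603 counts of its group. The largest left-out control library held 47767 counts. RO-3306 library D3 held 1819.5 of the 3118.5 member counts in its group, with 454 genes detected, and without it the value was 1162 CPM (1100 to 1227). Control library C11 held 207.5 of 300.5, and without it the value was 293 CPM (237 to 359). The difference was not tested.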

How the results depend on the processing

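All 4 family values kept their sign under every alternative run. The SR median of -1.28 became -1.05 with DESeq2 size factors, -1.07 with TMM factors, -1.08 as a mean over cells, -1.24 with no minimum, -1.22 thinned and -1.15 without members fractional in over 50% of cells. The SR sum of -1.06 became -0.83, -0.85, -1.02 (mean over cells), -1.04 (thinned) and -0.88 (without fractional members). The hnRNP median of -1.01 became -0.77, -0.80, -0.97 (thinned) and -1.39 (without fractional members). The hnRNP sum of -1.05 became -0.81, -0.84, -1.03 (thinned) and -1.28 (without fractional members). Relative to genes of like mRNA length, an alternative chosen after seeing the data, the medians were -1.16 and -0.78. Without sets B, C and D the SR median was -0.93, -1.45 and -1.22, and without A, B, C and D the SR sum was -1.07, -0.92, -1.16 and -1.10. Without sets A, B and D the hnRNP median was -1.24, -1.12 and -0.95, and without A, B and C its sum was -1.19, -0.95 and -0.99.

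The 8 members past 2-fold with one sign, beside 6.43% of all genes, became 14 without set A, beside 9.80%. There only 3 sets had to share a sign. Without the 10 fractional members 5 remained. Other alternatives gave 7 to 12 members, beside 4.82% to 11.5% of all genes, and 0 members were higher in any. Of 406 single-gene values, 394 stayed below 0, and the 12 above belonged to Srsf5, Hnrnph2 and Hnrnph3. Leaving out the cell with the most counts of a gene, also chosen after seeing the data, kept 28 of 29 genes lower, with Hnrnph3 at 1.02. No paired analysis was possible because the numbers in the titles belong to single cells and no test was made. The values of Srsf4, Srsf12 and Hnrnph3 are limited, as these genes were counted in few cells. After thinning to equal depth, Hnrnph3 was still counted in 2 of 25 control and 13 of 34 RO-3306 cells.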
